A study of Mus musculus with 18 samples.

Results

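The genes described here are 10 members of the nuclear factor kappa B (NF-kB) pathway: the 5 subunit genes *Nfkb1*, *Nfkb2*, *Rela*, *Relb* and *Rel*, the inhibitor and feedback genes *Nfkbia*, *Nfkbiz* and *Tnfaip3*, and the cytokine genes *Tnf* and *Lif*. They were taken by symbol from 2 expression tables, and all 10 were found in both, among 19780 genes for LSK and 18428 for CMP. RNA sequencing was performed on cells sorted from the bone marrow of female mice. LSK cells, sorted as Lin- Sca-1+ c-Kit+ with the antigens of myeloid, erythroid and B cells in the excluded set, form the compartment that holds haematopoietic stem cells and multipotent progenitors, and CMP are the committed myeloid progenitors downstream of them. The lupus model was the NZBW/F1 hybrid (NZB × NZW), which develops lupus spontaneously and carries no transgene. F1-P were prediseased NZBW/F1 mice 12 weeks old, and F1-L were NZBW/F1 mice with lupus, defined by proteinuria, at 28 to 36 weeks. C57BL/6 mice served as the healthy strain, at 12 weeks (B6-Y) and at 28 to 36 weeks (B6-O). LSK were sorted from all 4 kinds of mouse and CMP from F1-P and F1-L, which gave 6 groups of 3 samples each. Age and disease change together between F1-P and F1-L, and there were no older NZBW/F1 mice without disease. The 2 therefore cannot be told apart in either cell type. The C57BL/6 LSK show age in another strain only, and no C57BL/6 CMP were analysed here. The labels do not say whether a sample was a single mouse or a pool. A figure caption of the study gives n = 4 per replicate for CMP, without saying what was counted. The p-values therefore measure only the spread between these samples, which may be technical.

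NF-kB dimers are held in the cytoplasm by IkB proteins until a receptor such as a TNF receptor, the IL-1 receptor or CD40 activates the IKK kinases, which mark IkB for destruction and let the dimers enter the nucleus. The canonical arm works mainly through RelA or c-Rel paired with p50, the product of *Nfkb1*, and the noncanonical arm through RelB paired with p52, the product of *Nfkb2*. Several genes of the pathway are among its own targets: *Nfkbia* encodes IkBα and *Tnfaip3* encodes the ubiquitin-editing enzyme A20, which together shut the response down, and *Nfkbiz* encodes IkBζ, a nuclear cofactor that acts on a subset of secondary targets. In the bone marrow the pathway is known for its part in inflammatory haematopoiesis and in the survival of stem and progenitor cells.

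Promoters of several of these genes hold letters that match the kappaB consensus, the sequence NF-kB dimers bind, and these stretches are shown for that reason. RefSeq promoter windows (GRCm38.p6, 250 bases before to 50 bases after each transcript start) were matched for 7 of the 10 genes, in 10 windows. The 10-base kappaB consensus was searched on both strands. In each line below, the match is in capitals with 15 bases on either side where the window allows, read in the direction of the gene.
Nfkbia: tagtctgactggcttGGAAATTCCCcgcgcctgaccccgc
Tnfaip3, distal match: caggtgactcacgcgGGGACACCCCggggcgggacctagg
Tnfaip3, proximal match: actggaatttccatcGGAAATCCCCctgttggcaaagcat
Nfkb2, first start, distal match: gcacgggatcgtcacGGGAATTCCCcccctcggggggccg
Nfkb2, first start, proximal match: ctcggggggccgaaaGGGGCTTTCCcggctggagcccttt
Nfkb2, later starts: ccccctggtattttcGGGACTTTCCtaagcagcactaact
Rel: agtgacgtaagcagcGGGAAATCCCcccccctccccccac
The *Nfkbia* match lies at chr12:55492667-55492676, from 29 to 20 bases upstream of the start. The *Tnfaip3* matches lie at chr10:19015526-19015535 and chr10:19015413-19015422, the second of them 12 to 3 bases upstream. The *Nfkb2* matches lie at chr19:46304698-46304707, chr19:46304726-46304735 and chr19:46305705-46305714, and the *Rel* match at chr11:23771052-23771061, 92 to 83 bases upstream. The distal *Nfkb2* match and the *Rel* match each overlap a second match shifted by 1 base, and a further *Nfkb2* match lies at chr19:46305459-46305468. The windows of *Rela*, *Tnf* and *Lif* and the second *Tnfaip3* window held no match. A match was found in 6 of the 10 windows, against 1480 of all 32851 promoter windows (4.505%). By gene, 4 of the 7 had a match. The *Nfkb2* match at chr19:46305705-46305714 lies in the windows of both later starts and counts in each. A match is a description of the letters and was not tested as a binding site.

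All 10 genes are protein coding. Gene spans are given in mm10, from the GRCm38 annotation. Among the subunits, *Nfkb1* (ENSMUSG00000028163) is at chr3:135584655-135691547 on the minus strand, *Nfkb2* (ENSMUSG00000025225) is at chr19:46304320-46312385 on the plus strand and *Rela* (ENSMUSG00000024927) is at chr19:5637483-5648130 on the plus strand. *Relb* (ENSMUSG00000002983) is at chr7:19606217-19629438 on the minus strand and *Rel* (ENSMUSG00000020275) is at chr11:23736847-23770970 on the minus strand. Of the inhibitor and feedback genes, *Nfkbia* (ENSMUSG00000021025) is at chr12:55489410-55492647 on the minus strand, *Nfkbiz* (ENSMUSG00000035356) is at chr16:55811375-55838899 on the minus strand and *Tnfaip3* (ENSMUSG00000019850) is at chr10:19000910-19015657 on the minus strand. *Tnf* (ENSMUSG00000024401) is at chr17:35199381-35202007 on the minus strand and *Lif* (ENSMUSG00000034394) is at chr11:4257557-4272514 on the plus strand.

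Levels are given in CPM, a gene's reads scaled by the authors to a common library size. Whole reads could be recovered from the values, and the libraries held 23772252 to 28493747 reads in LSK and 20001328 to 24761060 in CMP. *Lif* had the fewest reads in CMP, from 8 to 146, and *Relb* had 47 to 619 there. In LSK the fewest were those of *Lif*, from 131 to 464, or of *Tnf*, from 179 to 433, depending on the library. *Nfkbia* had 1857 to 11726 reads in a library. The 2 tables were normalized separately, so no level was tested between LSK and CMP.

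The libraries matched their sorted populations in part. *Kit*, which encodes c-Kit, was at 256.7 to 657.4 CPM in LSK and at 416.5 to 667.9 CPM in CMP, and all 10 stem and progenitor markers were above 0 in every library. *Ly6a*, which encodes Sca-1, was at 293.4 to 878.7 CPM in the 6 NZBW/F1 LSK samples, at 35.47 to 112.9 CPM in the 6 C57BL/6 LSK samples and at 1.136 to 6.698 CPM in CMP, although the study's methods list Sca-1 as positive in the CMP gate. Markers of mature cells were also read. Immunoglobulin genes took 16.8% to 36.6% of the reads of the NZBW/F1 LSK libraries, 0.301% to 4.76% of the C57BL/6 LSK libraries and at most 0.255% of the CMP libraries. The 11 neutrophil markers, all above 0 in every library, summed to 315, 6453 and 8442 CPM in the 3 CMP F1-P samples. CMP F1-P 1 thus stood apart from the other 2, and the members' counts and differences in CMP, and the median of each pathway list, are also given below without it and with it as the only F1-P sample.

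**Figure D1:**
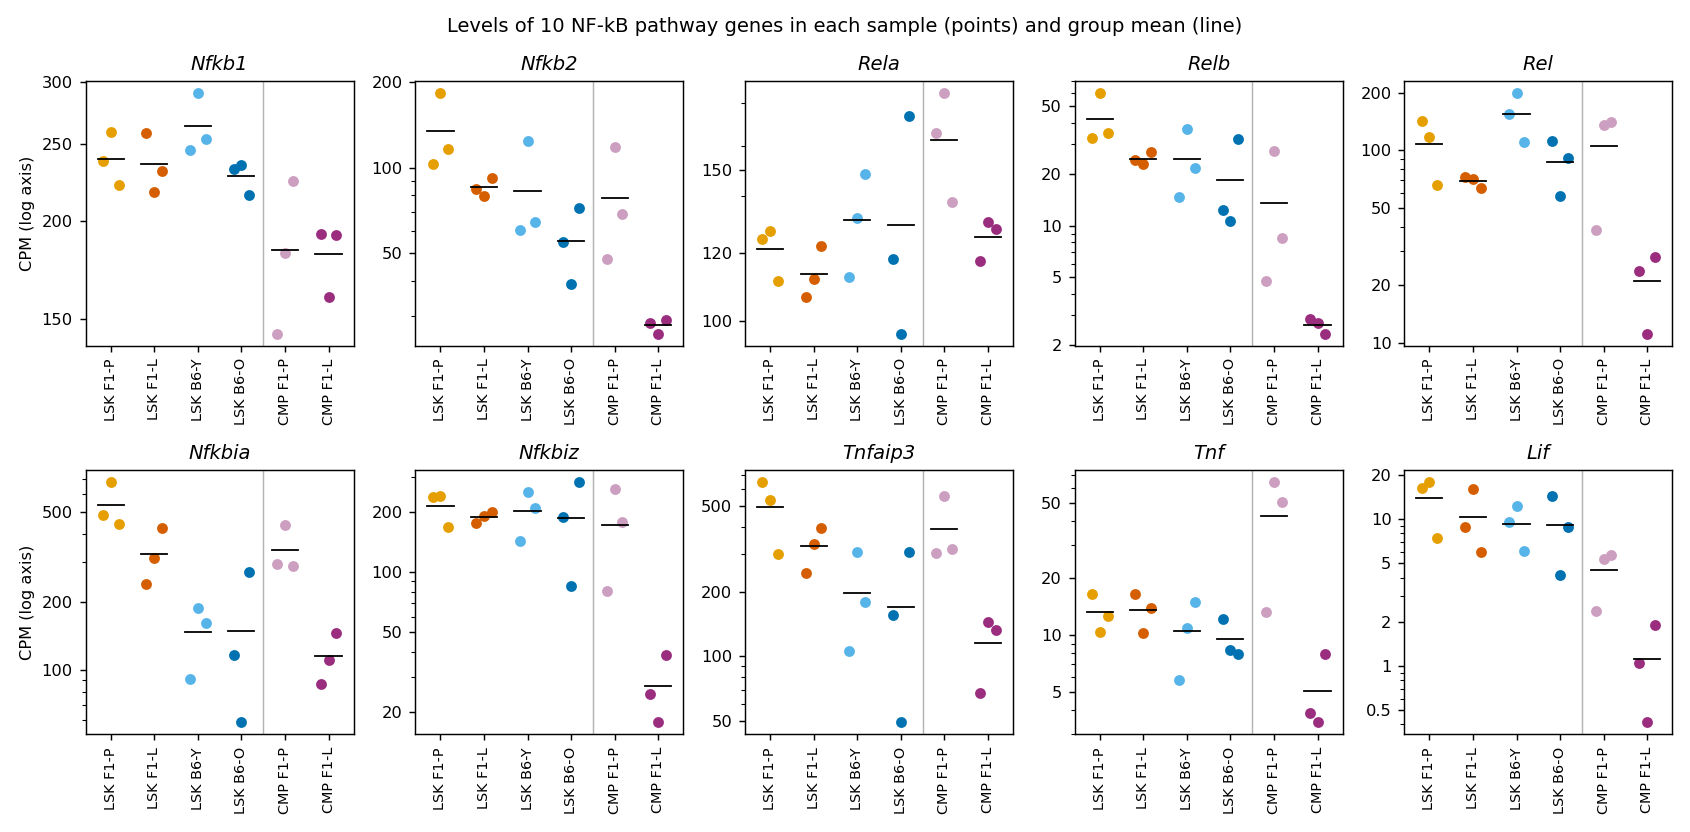
Level of each of the 10 genes in CPM on a log axis (y) in the 4 LSK and 2 CMP groups (x). Points are samples and lines are group means. In CMP, the F1-L samples of every gene but *Nfkb1* lie below all F1-P samples, and *Nfkbia* in LSK is above 443 CPM in every F1-P sample and under 188 CPM in every B6-Y sample.

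Per kilobase of exon, *Nfkbia* had the highest mean level of the 10 genes in all 6 groups and *Lif* the lowest. The mean *Nfkbia* level was 333 CPM per kb in LSK F1-P (SD 78.8), 203 in LSK F1-L (SD 57.95), 91.1 in B6-Y (SD 30.8), 92.2 in B6-O (SD 68.2), 211 in CMP F1-P (SD 52.4) and 71.3 in CMP F1-L (SD 18.5), with n = 3 each. In every group but B6-O, where the ranges of *Nfkbia* and *Rela* overlapped, no *Nfkbia* sample lay as low as the next gene. The gene next in order was *Tnfaip3* in LSK F1-P, LSK F1-L and CMP F1-P, and *Rela*, the main transactivating subunit of the canonical arm, in B6-Y, B6-O and CMP F1-L. *Rela* was the highest of the subunits per kb in all 6 groups, from 37.0 CPM per kb in LSK F1-L to 53.0 in CMP F1-P. Below it, most neighbours in the order overlapped. In LSK F1-P, *Tnfaip3*, *Nfkbiz*, *Rela* and *Nfkb2* had means of 68.4, 42.8, 39.5 and 29.3 CPM per kb, and each overlapped the next. *Relb* was the lowest subunit in all 6 groups, at 10.9 CPM per kb in LSK F1-P and 0.677 in CMP F1-L. *Tnf* was at 8.06 CPM per kb in LSK F1-P, with only *Lif* below it, and at 26.1 in CMP F1-P, with 5 genes below it.

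To ask how the pathway differs between lupus and prediseased progenitors, F1-L were compared with F1-P in CMP. Levels of 9 of the 10 genes were lower in F1-L CMP, by a fitted 1.29-fold for *Rela* to 6.29-fold for *Tnf*, and for these 9 the samples of the 2 groups did not overlap. *Nfkb1* was at 183.3 ± 40.4 CPM in F1-P and 181.3 ± 18.6 CPM in F1-L (SD, n = 3). None of the 10 was called by the main test, limma on log2(CPM + 1) with an adjusted p of at most 0.05 (Benjamini-Hochberg over all 12926 genes tested) and a fold change above 1.5, which called 0.00774% of genes, a single one. At an unadjusted p below 0.05, 9 of 10 were lower, against 5.25% of all genes, and groups with F1-L lower and no overlap made up 6.57% of all genes. The median difference was -1.62 over the 10 genes and 0.04 over all genes, on the log2(CPM + 1) scale used for all differences below, which understates the change of low genes. In these bulk samples, fewer cells of a type and less RNA per cell cannot be told apart.

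Among the subunits, *Rel*, which encodes c-Rel, differed most. *Rel* was at 38.71, 135.4 and 141.4 CPM in the F1-P samples and at 23.64, 11.2 and 28.16 CPM in F1-L. All F1-P samples were higher, and F1-P 1 was the nearest to F1-L. The difference was -2.15 (SE 0.573, adjusted p = 0.394 by limma). *Nfkb2*, the p52 precursor gene, was at 47.78, 118.2 and 68.66 CPM in F1-P and at 28.37, 26.06 and 29.11 CPM in F1-L, a difference of -1.36 (SE 0.309, adjusted p = 0.353 by limma). Its F1-L samples lay close together, whereas the F1-P samples were widely spread. *Relb*, its usual partner, was at 4.754, 27.31 and 8.46 CPM in F1-P and at 2.864, 2.684 and 2.339 CPM in F1-L, a difference of -1.67 (SE 0.555, adjusted p = 0.455 by limma). *Rela* was at 165.8, 184.7 and 137.7 CPM in F1-P and at 117.5, 130.7 and 128.3 CPM in F1-L. Its difference was -0.36 (SE 0.123, adjusted p = 0.46 by limma), the smallest of the 9. *Nfkb1*, which encodes p105 and p50, was at 143.7, 181.8 and 224.4 CPM in F1-P and at 192.1, 159.8 and 191.9 CPM in F1-L. The 2 groups overlapped throughout, and the 95% interval of the difference ran from -0.42 to 0.42.

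The inhibitor and feedback genes also lay lower in F1-L. *Nfkbia* was at 294, 436.8 and 287.5 CPM in F1-P and at 86.98, 111.1 and 146.3 CPM in F1-L. Every F1-P sample was far above the highest F1-L sample, and the difference was -1.56 (SE 0.239, unadjusted p = 0.000481, adjusted p = 0.327 by limma). *Tnfaip3* was at 301.9, 557 and 315.2 CPM in F1-P and at 67.79, 144.5 and 133 CPM in F1-L, a difference of -1.77 (SE 0.358, adjusted p = 0.353 by limma). *Nfkbiz* was at 80.24, 259.8 and 177.9 CPM in F1-P and at 24.55, 17.75 and 38.46 CPM in F1-L, a difference of -2.55 (SE 0.469, adjusted p = 0.352 by limma). For all 3 genes the gap between the groups was wider than the whole range of F1-L.

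The cytokine genes were at low levels in F1-L CMP. *Tnf*, which encodes a principal activator of the pathway, was at 13.21, 64.82 and 50.53 CPM in F1-P and at 3.865, 3.458 and 7.912 CPM in F1-L, a difference of -2.65 (SE 0.609, adjusted p = 0.353 by limma). *Lif*, which encodes leukaemia inhibitory factor, a cytokine of the IL-6 family, was at 2.353, 5.383 and 5.718 CPM in F1-P and at 1.046, 0.4129 and 1.891 CPM in F1-L, a difference of -1.37 (SE 0.371, adjusted p = 0.394 by limma). The *Lif* values of F1-L rested on 23, 8 and 38 reads.

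The call depended on the test and on 1 library. The edgeR likelihood ratio test rests on glmFit, the model that the study names for its own test. On the recovered reads it called 8 of the 10 genes lower, all but *Nfkb1* and *Rela*, against 2.11% of all genes. DESeq2 called 7, the same genes without *Lif*, against 2.33%. The edgeR quasi-likelihood test called 0, with 9 lower at an unadjusted p below 0.05, against 784 of all 12926 genes. Without CMP F1-P 1, limma called 6 genes lower, *Nfkb2*, *Rel*, *Nfkbia*, *Nfkbiz*, *Tnf* and *Lif*, against 3.1% of all genes, and 434 genes in all. *Relb* and *Tnfaip3* were then at -2.18 and -1.93 (adjusted p = 0.0643 and 0.0621 by limma), *Rela* at -0.34 and *Nfkb1* at -0.16, and the 6 called genes ran from -1.65 for *Nfkbia* to -3.33 for *Tnf*. With CMP F1-P 1 as the only F1-P sample, a comparison added after the data were seen in which the lone sample is assumed to vary like the others, none was called (adjusted p = 0.878 by limma for each). *Nfkbia* then differed by -1.38, *Tnfaip3* by -1.46, *Nfkbiz* by -1.61, *Tnf* by -1.30, *Nfkb2* by -0.76, *Relb* by -0.67 and *Rela* by -0.40, all 7 at an unadjusted p below 0.05 by limma, against 0.979% of all genes lower at that p. *Rel*, at -0.95, *Lif*, at -0.72, and *Nfkb1*, at 0.33, did not pass it, and the median of the 10 genes was -0.85.

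Neutrophil markers moved with this comparison. All 11 were lower in F1-L at an unadjusted p below 0.05, with a median of -4.21, and 3 of them had groups that did not overlap. *S100a9*, the most abundant, was at 93.98, 1801 and 2329 CPM in F1-P and at 22.96, 17.91 and 117.7 CPM in F1-L. Their sum was 86, 64 and 431 CPM in F1-L, so F1-P 1, at 315 CPM, was below F1-L 3. In these 2 samples *Nfkbia* was at 294 and 146.3 CPM, *Tnfaip3* at 301.9 and 133 CPM and *Nfkbiz* at 80.24 and 38.46 CPM, in that order. By the study's methods both gates excluded cells with CD11b or Gr-1, the surface antigens of neutrophils, and the part of neutrophil RNA in the result was not tested. The B cell and plasma cell markers summed to 56.2 to 333 CPM in F1-P and to 18.4 to 50.4 CPM in F1-L, and 6 of the 8 tested were lower at an unadjusted p below 0.05. Among the tested, *Ms4a1* was below 1 CPM in every F1-L sample, so it entered the test only through F1-P. *Tnfrsf17*, the plasma cell receptor BCMA, was at 0 in F1-L 3 and *Trac*, the T cell receptor alpha constant gene, at 0 in F1-L 2.

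**Figure D2:**
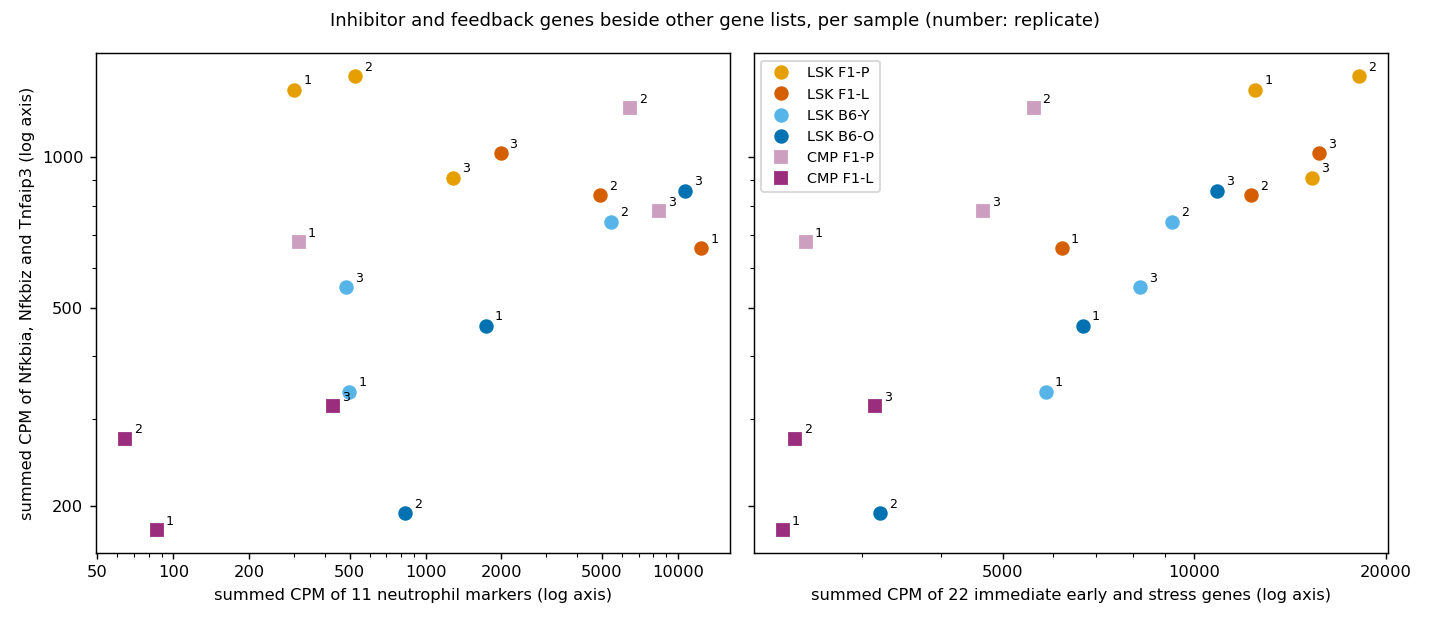
Summed CPM of *Nfkbia*, *Nfkbiz* and *Tnfaip3* (y, log axis) in each sample against the summed CPM (x, log axis) of 11 neutrophil markers (left) and of 22 immediate early and stress genes (right). Points are samples, numbered by replicate. CMP F1-P 1 has a neutrophil sum of 315 CPM and a feedback sum of 676 CPM, and CMP F1-L 3 has 431 and 318 CPM.

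Other genes of the pathway were read from lists. Of 26 IKK kinases and adaptors tested in CMP, 4 were lower in F1-L and 0 higher at an unadjusted p below 0.05, and the median was -0.05. *Birc3*, a ubiquitin ligase at the TNF receptor that is also a target of the pathway, differed by -1.11 and *Bcl10*, an adaptor of antigen receptor signalling, by -0.71. Of 15 other inhibitors and deubiquitinases, 4 were lower and 2 higher, with 4.55% of all genes higher at that p. *Zc3h12a* (regnase-1, an RNase that degrades cytokine mRNA) differed by -1.82, *Nfkbid* by -1.60 and *Nfkbie*, another IkB gene, by -1.58, while *Nlrc5* differed by 0.87. Of 8 receptors, only *Tnfrsf13c*, the BAFF receptor of B cells, passed that p, at -1.56. Of 9 partners of TNF and LIF, *Zfp36* and *Zfp36l1*, which bind AU-rich mRNA, were the 2 that did, and *Zfp36l1* differed by -0.41 with no overlap.

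Genes known as NF-kB targets were lower in larger number. Of 34 listed, 23 passed the filter on low values, and 12 of these were lower and 0 higher at an unadjusted p below 0.05, with a median of -1.19. None was called. *Mmp9*, a gelatinase that is also in the neutrophil list, differed by -4.60, the chemokine genes *Cxcl10* and *Cxcl2* by -3.13 and -3.08, and *Il1b*, which encodes interleukin-1β, by -2.81. Of 22 immediate early and stress genes, which respond within minutes to signals including cell handling, 9 were lower and 1 higher, with a median of -0.91. The nuclear receptor genes *Nr4a3* and *Nr4a1* differed by -3.71 and -2.34, *Egr3* by -2.68 and *Btg2* by -1.63, all without overlap. The summed level of the immediate early list was 2450, 5587 and 4655 CPM in F1-P and 2254, 2357 and 3150 CPM in F1-L, so that F1-P 1 lay within the F1-L range. Its part in the result was not tested. With F1-P 1 as the only F1-P sample, 2 of 20 target genes tested were lower at that p (median -0.28), 4 immediate early genes of 20 were lower and 1 higher (median 0.01), and none of the 26 kinases and adaptors (median -0.04), 8 receptors (median 0.35), 9 partners of TNF and LIF (median 0.08) or 10 neutrophil markers (median -1.28) passed it. Of 14 other inhibitors, 2 were lower and 1 higher, with a median of -0.03. Without F1-P 1, against 13.5% of all genes lower, 17 of 23 target genes, 15 of 20 immediate early genes, 6 of 26 kinases and adaptors, 7 of 15 other inhibitors, 1 of 8 receptors, 4 of 9 partners and all 11 neutrophil markers were lower, with medians of -1.65, -1.23, -0.09, -0.50, -0.49, -0.56 and -5.63.

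Of the remaining markers in CMP, 4 stem and progenitor genes of 10 were higher in F1-L with no overlap, against 9.45% of all genes, among them *Slamf1* by 1.14, *Mecom* by 0.92 and *Kit* by 0.39. Another 3 of the list were below 0 with overlap, *Flt3* the lowest at -0.84, and the list sums overlapped, at 806 to 1535 CPM in F1-P and 902 to 1264 CPM in F1-L. At an unadjusted p below 0.05, 3 of 6 stromal and endothelial genes tested were lower. Of these the collagen gene *Col1a1*, at -3.04 (adjusted p = 0.0078 by limma), was the single gene called in CMP. It was at 0.0909, 0.0516 and 0.0995 CPM in F1-L, so it entered the test only through F1-P. No gene was called when any of the CMP libraries other than F1-P 1 was left out. The erythroid and megakaryocyte list had 2 of 7 lower, the dendritic cell list 2 of 6 lower, the T and NK cell list 1 of 2 lower, the gate exclusion list 2 of 6 lower, the basophil, mast cell and eosinophil list 2 of 7 higher, and the monocyte and macrophage list 0 of 9.

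**Figure D3:**
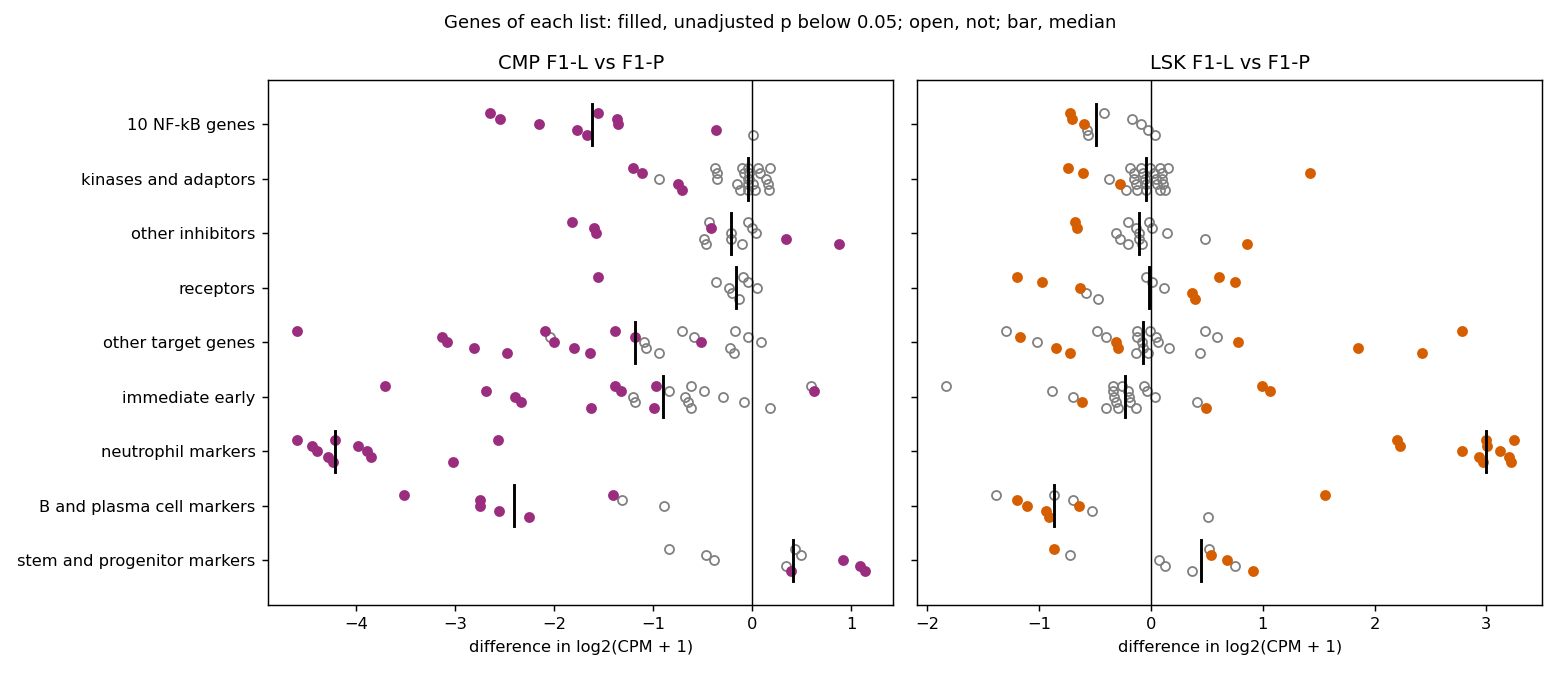
Difference in log2(CPM + 1) between F1-L and F1-P (x) for the tested genes of 9 lists (y), in CMP (left) and LSK (right). Filled points have an unadjusted p below 0.05, open points do not, and bars are medians. The median of the 10 NF-kB genes is -1.62 in CMP and -0.49 in LSK, and that of the neutrophil markers -4.21 and 3.00.

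In LSK, the same comparison of F1-L with F1-P gave smaller differences. *Nfkb2*, *Relb* and *Nfkbia* were lower in F1-L with no overlap between the groups, by 1.52- to 1.66-fold, and the other 7 genes overlapped. The main test called 0 of the 10 and 0.0279% of 14332 genes. At an unadjusted p below 0.05 these 3 genes were lower, against 4.19% of all genes, and F1-L was lower with no overlap for 7.29% of all genes. The edgeR quasi-likelihood and likelihood ratio tests and DESeq2 also called 0, with 4, 4 and 5 genes at that p. Of all 14332 genes, these tests put 707, 696 and 862 lower at that p and 1269, 1241 and 1323 higher. The count of members was not stable. By limma, 0 were lower at that p in the fit of all 12 LSK samples, against 519 of 15084 genes. It was also 0 without F1-L 2, against 387 of 14134 genes, and 1 without F1-L 1, against 543 of 14149. Without F1-P 3 it was 6, against 605 of 14174. The median was -0.49 over the 10 genes and -0.01 over all genes. It was -0.30 without F1-P 1, -0.28 without F1-P 2 and -0.73 without F1-P 3.

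*Nfkbia* was at 483.4, 680.3 and 443.2 CPM in LSK F1-P and at 239.3, 314.3 and 424.8 CPM in F1-L. The F1-L 3 sample came close to the lowest F1-P sample, and the difference was -0.73 (SE 0.252, adjusted p = 0.303 by limma). *Nfkb2* was at 103, 182.8 and 116.7 CPM in F1-P and at 84.31, 79.76 and 91.99 CPM in F1-L, a difference of -0.60 (SE 0.209, adjusted p = 0.303 by limma). *Relb* was at 32.61, 59.64 and 34.74 CPM in F1-P and at 24.31, 22.82 and 27 CPM in F1-L, a difference of -0.70 (SE 0.229, adjusted p = 0.281 by limma). In both noncanonical subunit genes, F1-P 2 was the highest sample and F1-L was the narrower group. Without F1-P 2 the differences were -0.36 for *Nfkb2* and -0.43 for *Relb*, and that of *Nfkbia* ran from -0.94 to -0.53 over the samples left out in turn.

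The other members overlapped between the stages in LSK. *Tnfaip3* was at 648.1, 535.2 and 300.5 CPM in F1-P and at 243.6, 334.1 and 396.1 CPM in F1-L (-0.56, 95% interval -1.30 to 0.18). *Rel* was at 141.9, 117.4 and 66.08 CPM in F1-P and at 72.94, 70.93 and 63.96 CPM in F1-L (-0.57, 95% interval -1.19 to 0.05). For both genes F1-P 3 lay among the F1-L samples and F1-P 1 was the highest. *Nfkbiz* was at 236.2, 240.6 and 167.9 CPM in F1-P and at 175.1, 191.5 and 199.7 CPM in F1-L (-0.17, 95% interval -0.54 to 0.20). *Nfkb1* and *Rela* differed by -0.02 and -0.09, and the interval of neither reached 0.34 in size. *Tnf* was at 16.57, 10.45 and 12.63 CPM in F1-P and at 16.54, 10.26 and 13.92 CPM in F1-L, nearly the same 3 values in both groups. *Lif* ranged from 7.434 to 17.97 CPM in F1-P and from 5.929 to 16.1 CPM in F1-L.

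The lists moved both ways in LSK, where 8.58% of all genes were higher in F1-L at an unadjusted p below 0.05. Of 27 kinases and adaptors, 1 was higher at that p and 3 lower. *Card9*, an adaptor of myeloid cells, differed by 1.42 and the paracaspase gene *Malt1* by -0.61. Of 15 other inhibitors, 1 was higher and 2 lower, with *Nfkbie* at -0.66. Of 12 receptors, 4 were higher and 3 lower, among them *Tnfrsf1a*, the main TNF receptor, at 0.75, the lymphotoxin receptor gene *Ltbr* at 0.60, *Cd40* at -0.98 and *Tnfrsf13c* at -0.64. Of the 9 partners of TNF and LIF, 2 were higher and 2 lower, with *Il6st*, the shared receptor subunit gp130, at -0.40. Of 26 target genes, 4 were higher and 5 lower: *Mmp9* differed by 2.78, *Il1b* by 2.42 and *Vcam1* by 1.85, and *Sdc4* by -0.72. Of 22 immediate early and stress genes, 3 were higher and 1 lower at that p. Of all 22 differences, however, 17 were below 0 and 5 above, with a median of -0.24. The list sums overlapped, with means of 15288 CPM in F1-P and 11377 CPM in F1-L. The 2 largest of the higher genes, *Hspa1b* and *Hspa1a*, at 1.06 and 0.99, share near-identical sequence, so their reads are uncertain between them.

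The neutrophil markers moved the other way in LSK. All 11 were higher in F1-L at an unadjusted p below 0.05 (median 3.00), and they summed to 301, 526 and 1281 CPM in F1-P and to 12373, 4905 and 1983 CPM in F1-L. Within F1-L, the sample with the highest neutrophil sum, F1-L 1, had the lowest *Nfkbia* and *Tnfaip3* of the 3. The B cell and plasma cell markers summed to 13670, 34906 and 31602 CPM in F1-P and to 8870, 8664 and 11583 CPM in F1-L, with *Jchain*, the joining chain of secreted antibody, the most abundant. Of the 11, 5 were lower and *Cd22* higher at that p. Of the monocyte and macrophage markers 6 of 10 were higher at that p, but their sums overlapped, at 392, 700 and 767 CPM in F1-P and 471, 388 and 552 CPM in F1-L. Among these markers, *Fcgr1* was below 1 CPM in every F1-P sample, so it entered the test only through F1-L. The most abundant of them, *Ly6c2*, was at 329.8, 604.8 and 663.4 CPM in F1-P and at 234.3, 301.7 and 405.5 CPM in F1-L. The part of these markers in the differences of *Nfkbia*, *Nfkb2* and *Relb* was not tested. At that p, the erythroid and megakaryocyte list had 3 of 7 higher, the stem and progenitor list 3 of 10 higher and 1 lower, the gate exclusion list 4 of 6 higher, the dendritic cell list 2 of 8 higher, the basophil list 2 of 6 higher, the stromal list 1 of 8 higher and the T and NK cell list 0 of 10.

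**Figure D4:**
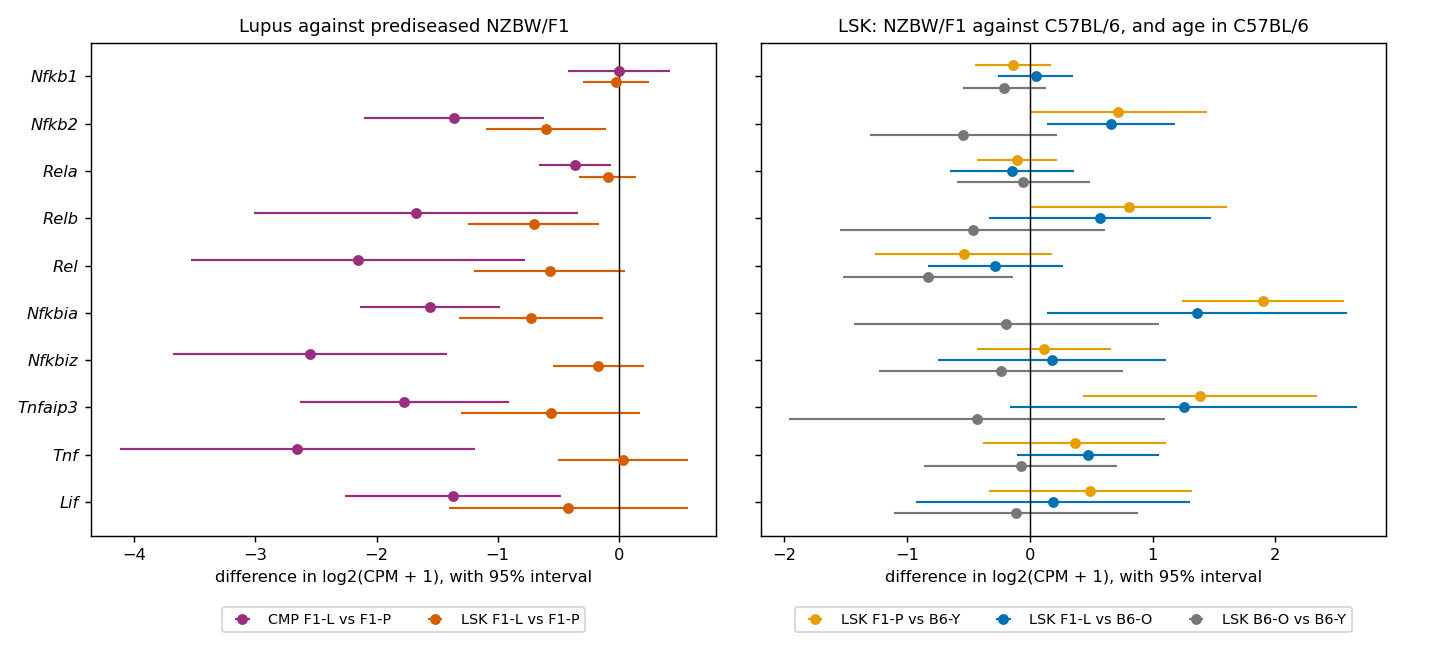
Difference in log2(CPM + 1) with its 95% interval (x) for each gene (y). Left, F1-L against F1-P in CMP and LSK. Right, NZBW/F1 against C57BL/6 LSK at each age, and old against young C57BL/6 LSK. *Nfkbia* in F1-P against B6-Y, at 1.90, is the 1 difference of the 50 that passed the threshold.

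The difference between stages was then compared between the cell types, as an interaction of stage with cell type. This compares differences taken within each table, so it does not rest on levels set across them. The interaction was negative, meaning that F1-L minus F1-P was lower in CMP than in LSK, for 9 of the 10 genes, with a median of -0.96 against 0.03 over all genes. No gene among 14526 was called (0%). At an unadjusted p below 0.05, 5 members were lower, against 5.81% of all genes. With same-numbered LSK and CMP samples of F1-P taken as pairs, an alternative added after the data were seen, 7 members were lower at that p, against 6.76%, and none was called. *Tnf* differed most, at -2.69 (SE 0.70, unadjusted p = 0.0026, adjusted p = 0.31 by limma), and *Nfkbiz* next, at -2.38 (SE 0.53, unadjusted p = 0.00089, adjusted p = 0.29 by limma). *Rel*, *Tnfaip3* and *Nfkbia* followed at -1.58, -1.21 and -0.83. The likelihood ratio test and DESeq2 each called *Nfkbiz* and *Tnf* lower, against 2.99% and 2.93% of all genes, and the quasi-likelihood test called 0. Without CMP F1-P 1, limma called 3 members lower, *Rel*, *Nfkbiz* and *Tnf*, against 3.61% of all genes. With CMP F1-P 1 as the only CMP F1-P sample, *Nfkbiz* was at -1.44, *Tnf* at -1.33, *Tnfaip3* at -0.90, *Nfkbia* at -0.65 and *Rel* at -0.37, none was called, and the median was -0.34. The neutrophil markers, with a median interaction of -7.21, moved with this result, and their part in it was not tested.

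NZBW/F1 LSK were compared with C57BL/6 LSK of the same age, to ask how the strains differ before and during disease. Before disease, *Nfkbia* was 3.73-fold higher in F1-P than in B6-Y and passed the test. It was at 483.4, 680.3 and 443.2 CPM in F1-P and at 91.58, 187.6 and 160.7 CPM in B6-Y. Even the lowest F1-P sample was far above the highest B6-Y sample, and the difference was 1.90 (SE 0.285, adjusted p = 0.00362 by limma). *Nfkbia* was called in all 17 alternative analyses of this comparison. The comparison called 16.2% of all 14380 genes, in either direction, so 1 of 10 members is not more than the background.

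*Tnfaip3* was at 648.1, 535.2 and 300.5 CPM in F1-P and at 105.4, 305.1 and 179.5 CPM in B6-Y. The highest B6-Y sample, B6-Y 2, just exceeded the lowest F1-P sample, F1-P 3, and the difference was 1.39 (SE 0.411, adjusted p = 0.055 by limma). Leaving out either of these 2 samples, the likelihood ratio test, DESeq2, median-of-ratios scaling and scaling without immunoglobulin genes each called it. The last 4 settings called *Nfkbia* and *Tnfaip3* higher, against 11.4%, 12.2%, 10.4% and 10.8% of all genes in that order. A replicate block called 4 members higher, against 11.6% of all genes. The difference was 1.71 without F1-P 3 (adjusted p = 0.0444 by limma) and 1.77 without B6-Y 2 (adjusted p = 0.0166 by limma). *Relb* was at 14.72, 36.73 and 21.88 CPM in B6-Y (0.81, adjusted p = 0.157 by limma) and *Nfkb2* at 60.56, 124 and 64.2 CPM (0.72, adjusted p = 0.16 by limma). In both genes B6-Y 2 was the sample that overlapped F1-P. Without B6-Y 2, *Nfkb2*, *Relb*, *Nfkbia* and *Tnfaip3* were called higher, against 9.86% of all genes. B6-Y 2 had the highest neutrophil marker sum of its group, 5441 CPM against 499 and 485 CPM, and the highest immediate early sum.

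The remaining members overlapped between F1-P and B6-Y. At an unadjusted p below 0.05, 3 of the 10 were higher, *Relb*, *Nfkbia* and *Tnfaip3*, against 16.2% of all genes, and 0 were lower, against 15.1%. *Nfkbia* was the 1 gene with no overlap, against 17.4% of all genes with F1-P higher. *Rel* was at 155.6, 198.7 and 110.1 CPM in B6-Y, a difference of -0.54 (95% interval -1.26 to 0.18). *Nfkbiz* was at 142.5, 251 and 209.3 CPM in B6-Y (0.12, 95% interval -0.43 to 0.66). *Nfkb1* was at 245.8, 290.5 and 254.1 CPM and *Rela* at 112.8, 132.1 and 148.7 CPM in B6-Y, with differences of -0.14 and -0.11. *Tnf* was at 5.796, 10.9 and 14.9 CPM and *Lif* at 9.608, 12.26 and 6.055 CPM, with differences of 0.36 and 0.49. The median over the 10 genes was 0.43 and over all genes -0.04, and that of the 10 genes was 0.27 without F1-P 1 or without B6-Y 1.

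Among the other genes of the pathway, 5 of 12 receptors were called higher in F1-P than in B6-Y and 2 lower, with a list median of 0.05 and overlapping list sums. *Tnfrsf17*, the BCMA receptor of plasma cells, was 3.56 higher on the log2 scale, *Tnfrsf9* (4-1BB) 1.70, *Cd40* 1.67, *Tnfrsf13c* 1.45 and *Tnfrsf13b* (TACI) 1.33, whereas *Il1r1*, the signalling receptor of interleukin-1, differed by -1.96 and *Tnfrsf1a* by -0.62. Of 27 kinases and adaptors, 2 were called higher and 1 lower, among them *Traf1*, a TNF receptor adaptor, which was higher by 1.59, and *Card9*, which differed by -1.36. Of 15 other inhibitors, *Nfkbid* and *Tnip3* were the 2 called, at -0.91 and -1.14. Of 9 partners, *Zfp36l1* was higher by 2.08 and *Il6st* by 0.80, and *Lifr*, the LIF receptor, and *Tnfrsf1a* were lower, *Lifr* by -1.16. Of 25 targets tested, 4 were called higher (*Ccl5* 2.6, *Cxcl10* 1.36, *Csf2* 1.11, *Bcl2l1* 0.74) and 2 were called lower (*Ccl4* -1.05, *Ptgs2* -0.82). Of 22 immediate early and stress genes 7 were called higher, among them *Jun* by 1.99, *Fosb* by 1.82, *Dusp1* by 1.73 and *Fos* by 1.64.

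Markers of other cell types moved with the strain as well. Of the B cell and plasma cell markers, 7 of 10 tested were called higher in F1-P and the list summed to 13670 to 34906 CPM, against 837 to 1877 CPM in B6-Y. Of the T and NK cell markers, 7 of 10 were called higher, *Ncr1* by 3.94. The immediate early sum was 12448, 18118 and 15298 CPM in F1-P and 5838, 9215 and 8217 CPM in B6-Y, with no overlap. The part of these cells or of these genes in the *Nfkbia* difference was not tested. At the test's threshold, 4 of 10 stem and progenitor genes were lower and *Ly6a* was higher by 3.53, 3 of 8 dendritic cell markers, 2 of 7 stromal markers and 1 of 7 erythroid and megakaryocyte markers were lower, 1 of 9 monocyte markers was higher and 1 lower, and none of the neutrophil, basophil and gate exclusion markers was called.

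The strains were also compared during disease, as F1-L against B6-O. The F1-L samples here and the F1-P samples above also served in the comparison of stages, so the comparisons share samples. *Nfkb2* was at 84.31, 79.76 and 91.99 CPM in F1-L and at 54.89, 38.81 and 71.98 CPM in B6-O, the 1 member with no overlap, against 17.5% of all genes with F1-L higher. Its difference was 0.66 (SE 0.221, adjusted p = 0.105 by limma). *Nfkbia* was at 239.3, 314.3 and 424.8 CPM in F1-L and at 116, 58.64 and 270.8 CPM in B6-O (1.36, SE 0.519, adjusted p = 0.143 by limma), and *Tnfaip3* at 155.4, 49.26 and 304.8 CPM in B6-O (1.25, adjusted p = 0.228 by limma). B6-O 3 reached into the F1-L range in both. The main test called 0 of the 10, against 11.6% of 14381 genes. At an unadjusted p below 0.05, 2 were higher, against 14.8% of all genes, and the quasi-likelihood test, likelihood ratio test and DESeq2 called 0. By limma without F1-L 3, 0 members were higher at that p, against 1435 of 13885 genes. Without B6-O 2, 1 was higher, against 1814 of 14171 genes, and 1 was lower, against 1332. Without B6-O 3, *Nfkb2*, *Relb*, *Nfkbia* and *Tnfaip3* were called higher, against 11.2% of all genes. B6-O 3 had a neutrophil sum of 10719 CPM against 1736 and 832 CPM in the other 2 B6-O samples, and the highest B cell sum, 2352 CPM, and immediate early sum, 10840 CPM, of its group.

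The other members overlapped between F1-L and B6-O. *Relb* was at 12.38, 10.64 and 32.13 CPM in B6-O, where the third sample stood well above the others. *Rel* was at 112.4, 58.39 and 90.9 CPM and *Nfkbiz* at 188.5, 85.71 and 282.8 CPM in B6-O, with differences of -0.28 and 0.18. *Nfkb1* and *Rela* differed by 0.05 and -0.15, and *Tnf* and *Lif* by 0.47 and 0.19. Among the lists, *Tnfrsf13c* was called higher in F1-L by 1.53, *Tnfrsf9* by 1.46, *Tnfrsf13b* by 0.81 and *Zfp36l1* by 1.85, *Il1r1* differed by -1.45, and the survival gene *Bcl2a1b*, whose reads are shared with near-identical paralogs, was called higher by 1.05. None of the kinases and adaptors, other inhibitors and immediate early genes was called. Of the markers, 5 of 11 B cell and plasma cell genes, 5 of 10 T and NK cell genes and 3 of 10 monocyte and macrophage genes were called higher, and none of the neutrophil genes was called. Of 10 stem and progenitor genes, 1 was called higher and 3 lower, of 8 stromal genes 1 each way, and of 7 erythroid and megakaryocyte genes 1 lower.

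Age in the healthy strain was read from B6-O against B6-Y. The differences of all 10 genes were below 0 with all samples, and none was called (0% of 14005 genes). *Nfkb1*, *Nfkb2*, *Relb* and *Rel* stayed below 0 whichever sample was left out, whereas the other 6 did not. *Rela*, *Nfkbia*, *Nfkbiz*, *Tnfaip3* and *Lif* were above 0 without B6-O 2, *Nfkbia* and *Lif* without B6-Y 2, *Rela* and *Tnf* without B6-Y 3 and *Tnf* without B6-O 3. The edgeR tests also put *Nfkbia* above 0, and the median of the 10 genes ran from -0.68 without B6-O 3 to 0.07 without B6-O 2. *Rel* was at 112.4, 58.39 and 90.9 CPM in B6-O against 155.6, 198.7 and 110.1 CPM in B6-Y, with one B6-O sample above the lowest B6-Y sample. Its difference was -0.83 (SE 0.295, adjusted p = 0.613 by limma), the 1 member with an unadjusted p below 0.05, against 3.37% of all genes. *Nfkb1* was at 232.8, 235 and 215.5 CPM in B6-O and at 245.8, 290.5 and 254.1 CPM in B6-Y, with no overlap and a difference of -0.21, while 5.57% of all genes were lower with no overlap. The quasi-likelihood test, likelihood ratio test and DESeq2 called none of the 10. Of the other pathway lists, *Lifr* differed by -1.26, *Tnfrsf13c* by -0.71, *Nfkbie* by -0.66 and *Tnip3* by 0.46, with none called.

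Whether the stage difference in NZBW/F1 LSK exceeded the age difference in C57BL/6 LSK was tested as an interaction of strain with age. It called 0% of 15084 genes. For the 10 genes it ran from -0.54 (*Nfkbia*, 95% interval -1.97 to 0.89) to 0.26 (*Rel*, 95% interval -0.69 to 1.2), with 4 above and 6 below 0, and the median was -0.05. All but *Nfkb1* changed sign when some single sample was left out, and the median ran from -0.35 without B6-O 2 to 0.18 without B6-Y 1. No member reached an unadjusted p below 0.05, with 2.86% of all genes higher and 1.06% lower at that p, and the quasi-likelihood test, likelihood ratio test and DESeq2 called none of the 10. The lower *Nfkb2*, *Relb* and *Nfkbia* of F1-L LSK were thus not shown to differ from the same contrast of ages in C57BL/6.

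Ratios within a sample remove the scaling of the library. The ratio of *Nfkbia* to *Nfkb1* ran from 1.28 to 2.40 in CMP F1-P and from 0.453 to 0.763 in CMP F1-L, a difference in mean log2 ratio of -1.57, with no overlap. In LSK it ran from 2.00 to 2.63 in F1-P, from 0.925 to 1.84 in F1-L, from 0.373 to 0.646 in B6-Y and from 0.249 to 1.26 in B6-O. The 3 NZBW/F1 prediseased samples were above all 9 others. An exact two-sided permutation test gave p = 0.1 for F1-L against F1-P in both cell types and for F1-P against B6-Y, which is the smallest value that 3 against 3 samples allow, so this test cannot pass 0.05. The ratio of *Nfkb2* to *Nfkb1* ran from 0.432 to 0.706 in LSK F1-P and from 0.326 to 0.398 in LSK F1-L, and from 0.306 to 0.650 in CMP F1-P and from 0.148 to 0.163 in CMP F1-L. The ratio of *Relb* to *Rela* was lower in F1-L without overlap in both cell types too, at 0.204 to 0.228 in LSK F1-L and 0.0182 to 0.0244 in CMP F1-L. The ratio of *Rel* to *Rela* was lower without overlap in CMP F1-L, by 1.85 in mean log2 ratio, and overlapped in LSK. In all, 9 ratios were computed.

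Across the 12 LSK samples, the genes whose levels were most like each member were found among 11330 genes with a mean of at least 5 CPM, by Pearson correlation of log2(CPM + 1). The samples share strain, sort and depth differences, so these values are a description. *Nfkbia* was most like *Jun* (r = 0.974), the immunoglobulin light chain gene *Igkv9-120* (r = 0.974) and *Phlda1* (r = 0.972). *Tnfaip3* was most like *Bhlhe40* (r = 0.956), *Ier5* (r = 0.955) and *Nfkbia* itself (r = 0.943). *Nfkb2* was most like *Birc2* (r = 0.964), *Sspo* (r = 0.955) and *Icam1* (r = 0.954), an adhesion molecule gene of the target list. *Relb* followed *Stx5a*, *Clk4* and *Arfgap1* (r = 0.960, 0.956 and 0.951), and *Nfkb2* and *Relb* followed each other with r = 0.944. *Nfkbiz* was most like *Atf3*, *Atf4* and *Gadd45b* (r = 0.929, 0.902 and 0.900). *Rel* was most like *Bcl2l11*, which encodes the apoptosis inducer Bim, *Arl5b* and *Lemd3* (r = 0.965, 0.955 and 0.950), and *Rela* was most like *Syf2*, *Snhg15* and *Nr1h2* (r = 0.951, 0.946 and 0.934). *Nfkb1*, *Tnf* and *Lif* had no neighbour above r = 0.893, and the nearest were *Sbf1* (r = 0.893), *9330151L19Rik* (r = 0.808) and *Egr3* (r = 0.849). *Nfkb1*, whose level varied least, had r = -0.108 with *Nfkbia* and r = 0.022 with *Tnfaip3*.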

How the data were processed

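The deposited values are a signal in CPM, made by the authors from single-end reads of mRNA libraries prepared from total RNA, aligned to mm10 with STAR 2.6, counted with HTSeq and scaled with edgeR. The strand setting of the counting is not given in the sources used here. LSK and CMP were normalized in separate tables. In every library 100% of values were whole multiples of 1 read within 0.02 reads, so whole reads were recovered. All 18 samples were used, grouped by their labels, and 0 columns of per-sample values were left unused.

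Genes that reached 1 CPM in 3 or more of the samples compared entered limma 3.58.1 (R 4.3.3) on log2(CPM + 1), with an intensity trend and Benjamini-Hochberg adjustment over all genes tested. The design had foreseen plain CPM, and the same test was kept for these scaled values. Where a gene was below 1 CPM throughout 1 of 2 groups compared, it entered only through the other group. The filter then fixed its direction and its lack of overlap in advance. A gene was called where its adjusted p was 0.05 or less and its fold change over 1.5. The interactions used all groups they involve. Alternatives were pseudocounts of 0.5 and 0.1, no filter or a mean of at least 5 CPM, 2 other scalings, a replicate block, edgeR 4.0.16 quasi-likelihood and likelihood ratio tests and DESeq2 1.42.0 on recovered reads, a fit of all 12 LSK samples, and leaving out each sample. The scripts were tested on simulated data with a dispersion of 0.05. There limma called 63% of 2-fold changes for F1-L against F1-P in CMP. It called 17% of them for strain by age and 18% for stage by cell type, so both interactions could miss most differences of that size. No libraries were duplicates. Same-numbered LSK and CMP samples of F1-P deviated together from their group means, with correlations across genes of 0.21, 0.16 and 0.14. Each was most like the sample of its own number, so those numbers were taken as pairs in an added alternative. Counting error alone is small for most members, and depth limits *Lif* and *Relb* in CMP.

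The genes and the 19 lists were chosen with earlier results of these data known. Text names the 10 genes, the genes called in a list, up to 4 genes per list with the largest difference among those with an unadjusted p below 0.05 and no overlap between groups, and the 3 genes most like each member. Some genes that meet this rule are not reported here. Symbols matched for 19770 of 19780 gene identifiers in LSK and 18421 of 18428 in CMP. Promoter sequences are from RefSeq.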

Additional observations from a re-analysis of the deposited data

Results flagged for a closer look

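The difference between F1-L and F1-P was tested between the cell types. Of the 10 genes, 5 were lower at an unadjusted p below 0.05 by limma, against 5.81% of all genes, so they are listed for a closer look. The difference was lower in CMP than in LSK by 2.69 for *Tnf* (-2.69), 2.38 for *Nfkbiz* (-2.38), and was -1.58 for *Rel*, -1.21 for *Tnfaip3* and -0.83 for *Nfkbia*, on the log2(CPM + 1) scale. The unadjusted p-values by limma were 0.0026, 0.00089, 0.04, 0.038 and 0.046 in that order, and the adjusted p-values 0.31, 0.29, 0.6, 0.59 and 0.62. None passed the correction. The edgeR likelihood ratio test and DESeq2 each called *Nfkbiz* and *Tnf*, against 2.99% and 2.93% of all genes called lower. Limma without CMP F1-P 1 called 3.61% of all genes lower. Without CMP F1-P 1, *Tnf*, *Nfkbiz* and *Rel* passed, at -3.37, -2.85 and -2.18 (adjusted p = 0.00289, 0.00319 and 0.0335 by limma), and *Tnfaip3* and *Nfkbia* did not, at -1.37 and -0.92 (adjusted p = 0.225 and 0.262 by limma). With CMP F1-P 1 as the only CMP F1-P sample, a comparison added after seeing the data, they were -1.33, -1.44, -0.37, -0.90 and -0.65, with unadjusted p-values by limma of 0.0261, 0.00724, 0.542, 0.168 and 0.169 and an adjusted p of 0.993 each, so *Rel*, *Tnfaip3* and *Nfkbia* no longer passed the unadjusted threshold.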

How the results depend on the processing

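Of 1309 values of single members under alternatives, 1204 kept their direction and side of the threshold, 43 became called, 0 lost a call and 62 changed sign. The called *Nfkbia* difference between F1-P and B6-Y kept its call under all alternatives run. Within a cell type the replicate numbers were not taken as pairs. Same-numbered deviations in CMP correlated at -0.45, -0.32 and 0.62. In LSK they correlated at 0.33, 0.32 and 0.07 for F1-P and B6-Y, and at 0.47, -0.36 and 0.32 for B6-O and B6-Y. In each of these, some sample was most like one of another number. LSK and CMP of F1-L, at -0.002, 0.14 and -0.11, were not taken as pairs either. Pairing of F1-P with B6-Y is not excluded by these values. For stage by cell type, pairing LSK with CMP within F1-P, added after seeing the data, left 0 genes and 0 members called and gave 7 members, against 5, an unadjusted p below 0.05 by limma. The share of all genes lower at that p was 6.76% with this pairing and 5.81% in the main test. A replicate block over both stages gave 4 members, against 782 of 14526 genes lower, and also called 0. Differences of all 10 members changed sign under at least 1 alternative in some comparison, given below, and the cause was not tested. *Lif* and *Relb* in CMP rest on few reads.

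Genes called in LSK F1-L against F1-P (4) were 2 with median-of-ratios scaling, 0 with a replicate block, 659 with the likelihood ratio test, 734 with DESeq2 and 26 in the fit of all 12 LSK samples. In CMP (1) they were 0 with a mean of at least 5 CPM, 0 with the replicate block, 318 with the likelihood ratio test, 351 with DESeq2 and 0 with CMP F1-P 1 alone. There, 8 members were called by the likelihood ratio test and 7 by DESeq2, where 2.11% and 2.33% of all genes were called lower. The median with CMP F1-P 1 alone was -0.8523, a comparison added after seeing the data. Genes called in F1-L against B6-O (1667) were 978 with a mean of at least 5 CPM. Members called in F1-P against B6-Y (1) were 2 with each of median-of-ratios scaling, scaling without immunoglobulin genes, the likelihood ratio test and DESeq2, with 10.4%, 10.8%, 11.4% and 12.2% of all genes called higher, and 4 with the replicate block, with 11.6%. Genes called in B6-O against B6-Y (0) were 1 with scaling without immunoglobulin genes, 115 with the likelihood ratio test, 207 with DESeq2 and 13 in the fit of all 12 samples. For strain by age (0) they were 10 with the likelihood ratio test and 29 with DESeq2. For stage by cell type (0) they were 443, 438 and, with CMP F1-P 1 alone, 2, with 2 members called by each of the likelihood ratio test and DESeq2, where 2.99% and 2.93% of all genes were called lower, and a median of -0.3406 with CMP F1-P 1 alone.

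Leaving out 1 sample gave 0 to 25 genes called for LSK F1-L against F1-P, 0 to 434 for CMP, 448 to 2285 for F1-L against B6-O, 927 to 2229 for F1-P against B6-Y, 0 to 48 for B6-O against B6-Y, 0 to 1 for strain by age and 0 to 531 for stage by cell type. Members called ran from 0 to 6 in CMP, 0 to 4 for F1-L against B6-O, 1 to 4 for F1-P against B6-Y and 0 to 3 for stage by cell type. The highest of these counts came without CMP F1-P 1, B6-O 3, B6-Y 2 and CMP F1-P 1, in that order. The shares of all genes called in the same direction were then 3.1%, 11.2%, 9.86% and 3.61%. Medians of the members ran from -0.7327 to -0.2794, -1.81 to -1.295, 0.1777 to 0.4731, 0.266 to 0.591, -0.6848 to 0.06697, -0.3482 to 0.1769 and -1.32 to -0.7232 over the 7 comparisons in that order.

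Changes of sign by the other settings were *Nfkb1* in CMP (-0.01259 with median-of-ratios scaling, -0.01609 with both edgeR tests, -0.05819 with DESeq2), *Nfkbia* in B6-O against B6-Y (0.01811 and 0.01814 with the edgeR tests), *Nfkbiz* for strain by age (-0.0733 with both edgeR tests, -0.05957 with DESeq2) and *Relb* for stage by cell type (0.03535 with CMP F1-P 1 alone). Leaving out 1 sample, the ranges that crossed 0 were, for LSK F1-L against F1-P, *Nfkb1* -0.09145 to 0.03389 and *Tnf* -0.1107 to 0.2093. For CMP, *Nfkb1* ran from -0.1604 to 0.1593. For F1-L against B6-O they were *Nfkb1* -0.02059 to 0.1037, *Rela* -0.333 to 0.08504, *Nfkbiz* -0.2916 to 0.5638 and *Lif* -0.233 to 0.5608, and for F1-P against B6-Y *Nfkbiz* -0.1113 to 0.2951. For B6-O against B6-Y they were *Rela* -0.2831 to 0.1349, *Nfkbia* -0.7588 to 0.3353, *Nfkbiz* -0.6173 to 0.2381, *Tnfaip3* -1.026 to 0.2768, *Tnf* -0.4115 to 0.2015 and *Lif* -0.4844 to 0.3094. For strain by age they were *Nfkb2* -0.3882 to 0.1828, *Rela* -0.2273 to 0.1907, *Relb* -0.569 to 0.2312, *Rel* -0.06094 to 0.4845, *Nfkbia* -1.063 to 0.03091, *Nfkbiz* -0.4077 to 0.4477, *Tnfaip3* -0.8397 to 0.4628, *Tnf* -0.1667 to 0.4463 and *Lif* -0.726 to 0.06773. For stage by cell type *Nfkb1* ran from -0.1371 to 0.1825.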
